A study of Mus musculus with 149 samples.

Results

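The proteasome subunit genes were taken as all rows of the deposited table whose symbol begins with Psm, one of the letters a to g, and a digit. The rule found 50 genes among 20308 mouse genes. They were read in 149 single cells of a hepatocyte preparation from 1 wild-type male C57BL/6 mouse of 8 weeks, for which the labels give no drug or diet. Hepatocytes are the parenchymal cells of the liver, released here by perfusion with a digest medium and enriched by slow centrifugation. The cells were caught on Fluidigm C1 chips, microfluidic devices with traps of a given width. Traps of 17 to 25 µm (here the large chip) held 80 cells, traps of 10 to 17 µm (medium) 30 cells and traps of 5 to 10 µm (small) 39 cells. All cells came from 1 animal and each chip is 1 sample, so the values below describe these cells and no p-value is given.

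The proteasome is the protease that degrades ubiquitin-tagged proteins in the cytosol and nucleus. Its barrel-shaped core particle stacks rings of alpha subunits (Psma genes) around rings of beta subunits (Psmb genes), and Psmb5, Psmb6 and Psmb7 carry the proteolytic sites. Under interferon these can be replaced by Psmb8, Psmb9 and Psmb10, which form the immunoproteasome that makes peptides for MHC class I. The regulatory particle caps the core: its base holds the Psmc ATPases, which unfold substrates, and most Psmd genes encode the remaining base subunits and the lid. Psme1 and Psme2 form an alternative cap, Psme3 and Psme4 encode other activators, Psmf1 is an inhibitor, and the Psmg genes with Psmd5, Psmd9 and Psmd10 encode assembly chaperones.

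The cells differed widely in how much of their summed values came from the ERCC spike-in, a mix of synthetic RNAs added at lysis. The spike-in share was under 50% in 64 large, 7 medium and 12 small-chip cells. Cells with a total above 3000000 numbered 23 (large), 26 (medium) and 35 (small), all with a spike-in share of at least 20.1%, while the share in the remaining cells was at most 6.69%. Among the large-chip cells under 50%, 7 had such totals. Their median sum of mouse values was 3564551, against 1756617 in the large-chip cells with smaller totals. Every cell held at least 3 of 6 hepatocyte markers. At least 3 markers of another liver cell type were above 0 in 34 large, 10 medium and 17 small-chip cells, and in the large chip the bile duct list (22 cells) and the endothelial list (13 cells) were the most frequent. No doublet caller was run.

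Most proteasome genes were detected. A gene counted as measured when its value was above 0 in at least 20% of the 149 cells, and 47 of the 50 members were (94.0%, against 43.4% of all mouse genes, or 8813 genes). The measured members were 7 core alpha genes, 7 core beta genes, 4 inducible or tissue-specific beta genes, 6 ATPases, 11 non-ATPase subunits, 5 activators or inhibitors and 7 assembly chaperones. Not measured were Psma8, the alpha subunit of the testis, Psme2b, a retrogene copy of Psme2, and Psmc3ip, a meiotic recombination protein that shares the start of the symbol but is no proteasome subunit. Nearest below the limit were Psme2b (above 0 in 15.4% of cells) and Psmc3ip (8.05%), and nearest above it Psmg1 (38.3%) and Psmg3 (40.3%). Psme2 and Psme2b share sequence, so how reads were split between both rows is uncertain.

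The highest levels per length were those of core genes. Over the 64 large-chip cells below 50% spike-in, the 7 highest medians per kilobase of transcript all belonged to core genes. The beta subunit Psmb2 had a median of 314 per kilobase, Psmb6 of 302 per kilobase and the alpha subunit Psma6 of 277 per kilobase. Psma3, another alpha subunit, was above 0 in all 64 of these cells, with a lowest value of 312, a median of 547 and a highest of 5540 before division by length. The ATPases ran below these 7, from a median of 102 per kilobase for Psmc5 to 30.1 per kilobase for Psmc3. Not every core gene stood above the ATPases: Psma2 and Psmb4 had lower medians per kilobase than Psmc5. Psmc4, an ATPase of the base, was above 0 in all 80 large-chip cells. Its lowest value there was 2.97, the same in large-chip cells 13, 17, 54 and 73, so detection includes very low values.

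The non-ATPase subunits spread widely. Psmd14, the deubiquitinase of the lid, had a median of 114 per kilobase in the 64 cells, with values from 3.62 to 3640 before division by length. Psmd3 and Psmd13, further lid subunits that the assembled particle holds in a single copy like Psmd14, had medians of 0.812 and 2.25 per kilobase. Psmd3 was above 0 in 50 of the 64 cells, yet its median value was 1.75, and 1 cell held 45.4% of its sum. Whether the transcript models or the alignment used upstream affect the rows of Psmd3 and Psmd13 cannot be seen from the table. Of the caps, Psme2 had a median of 181 per kilobase and Psme1 of 129 per kilobase, against 10.9 per kilobase for Psme4 and 4.64 per kilobase for Psme3. The assembly chaperones were low, from 18.8 per kilobase for Psmg2 to 3.15 per kilobase for Psmd5.

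The constitutive catalytic genes had higher medians than the inducible ones. Over these 64 cells, Psmb6 ran from 0 to 1206 with a median of 241. Psmb7 ran from 0 to 664 with a median of 118, and Psmb5 from 0 to 293 with a median of 92.9. Their inducible counterparts had lower medians, and Psmb8 and Psmb10 had longer upper tails. Psmb8, which replaces Psmb5, ran from 0 to 3407 with a median of 42.9. Psmb9, which replaces Psmb6, ran from 0 to 458 with a median of 30.8, and Psmb10, which replaces Psmb7, from 0 to 3379 with a median of 36.04. Per kilobase the medians were 302, 102 and 103 for Psmb6, Psmb7 and Psmb5, and 26.4, 22.8 and 27.5 for Psmb8, Psmb9 and Psmb10. A single cell held 40.3% of the Psmb8 sum and another 53.4% of the Psmb10 sum, so the means of both genes rest largely on 1 cell each. The ranges of all 6 genes overlapped.

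**Figure D1:**
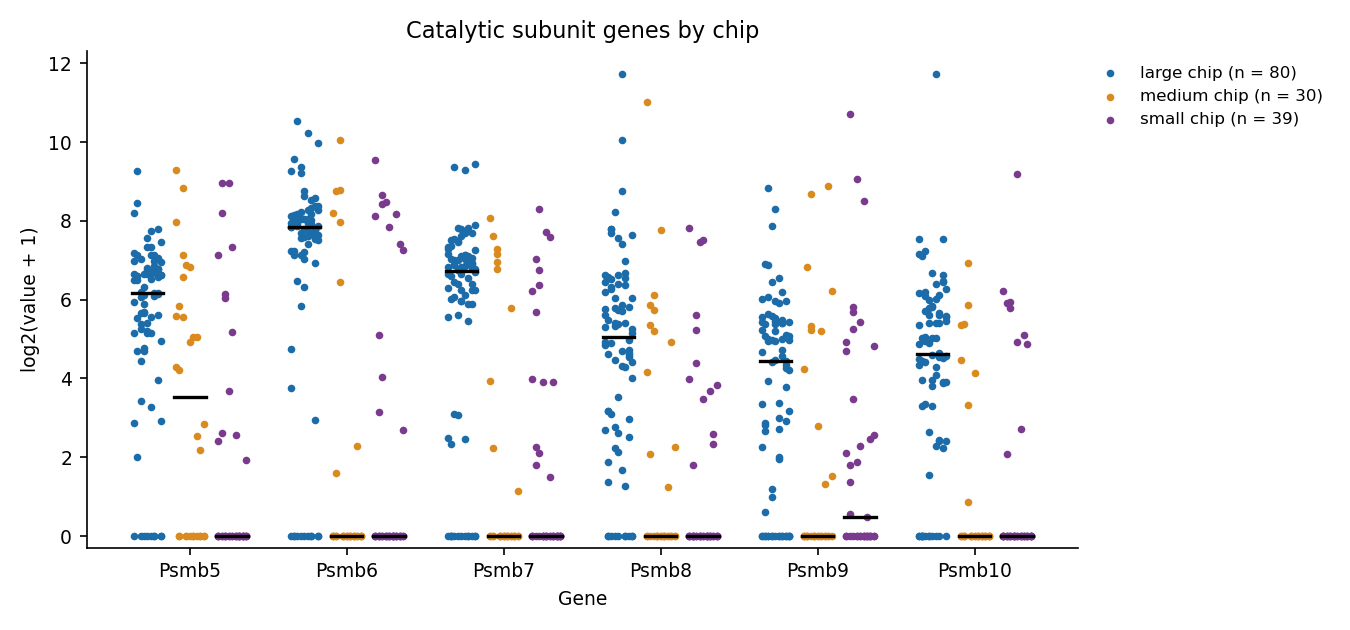
Values of the 6 catalytic beta genes as log2(value + 1), 1 point per cell, by chip (80 large, 30 medium and 39 small-chip cells), with the median as a black line. Large-chip medians of Psmb5, Psmb6 and Psmb7 lie above those of Psmb8, Psmb9 and Psmb10, and most medium-chip and small-chip medians are at 0.

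A gene of the thymus was also listed. Psmb11, the beta subunit of the thymoproteasome, was above 0 in 65 of 80 large-chip cells, but its median was 4.33 and its highest value 46.4. Per kilobase its median in the 64 cells was 1.06, against 103 per kilobase for Psmb5, which lies next to it on chromosome 14 (Psmb5 at chr14:54614119-54618022, Psmb11 at chr14:54621433-54629556, build mm10). Its rho with the spike-in share over the 80 cells was 0.13, the highest among the 47 members.

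The inducible share was taken per cell as Psmb8, Psmb9 and Psmb10 over the sum of all 6 catalytic genes, without division by length. Large-chip cells had a median of 21.8% (mean 27.4% ± 23.2, SD over the 76 cells in which any of these genes was above 0), with a lowest value of 0.507% and a highest of 100%. The 24 medium-chip cells with a value had a median of 25.9%, and 31 small-chip cells one of 39.9%. The share passed 50% in 8 large, 10 medium and 12 small-chip cells, and the 3 ranges overlapped. Among cells below 50% spike-in the medians were 22.5%, 23.7% and 17.7% (large, medium, small), so the order of the chips was not the same. Across the 64 large-chip cells of this kind the share had a Spearman rho of -0.46 with the number of genes above 0 and of 0.40 with the spike-in share; the part of detection in the share was not tested.

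The highest inducible values stood in single cells. Psmb10 reached 3379 in large-chip cell 7, which held at least 3 endothelial markers and had a spike-in share of 34.04%. Psmb8 reached 3407 in large-chip cell 17, where no other cell type's list had 3 markers and 17 of the 47 members were above 0. Psmb9 reached 1689 in small-chip cell 35, also without 3 markers of another type, with a spike-in share of 69.9%. In the 46 large-chip cells without 3 markers of another type, the medians of Psmb8, Psmb9 and Psmb10 were 21.5, 5.84 and 19.6, against 54.8, 30.1 and 40.6 in the 34 cells with them. Psmb5 had medians of 59.8 and 71.7, and Psmb6 of 198 and 249.7, in the same sets of cells. Summed endothelial markers (7 genes) ran from 0 to 37711 over the large-chip cells with a median of 0.505, and summed Kupffer cell markers (5 matched genes) from 0 to 17.9. Kupffer cell markers reached 40935 in the medium and 44331 in the small chip. Of the 46 cells without these markers 15 had a spike-in share of 50% or more, against 1 of the 34 with them. The part of other cell types' RNA and of the spike-in share in these values was not tested.

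Proteasome genes were detected in fewer cells where the spike-in share was high. In the large chip a median of 45.5 of the 47 members were above 0 in cells under 50% spike-in (lowest 17, highest 47) and 22 in cells at or above 50% (lowest 8, highest 30). The medians were 44 and 14 in the medium chip and 35 and 13 in the small chip. Of all 8813 genes tested, a median of 6996 and 2826 were above 0 in the same sets of large-chip cells, 6593 and 2065 in the medium chip and 4036 and 2288 in the small chip. The members also took a smaller share of the mouse values. Over large-chip cells this share had a median of 0.348% in cells under 50% spike-in (0.223% to 0.949%) and of 0.216% in the others (0.0115% to 0.874%), a ratio of 0.62. It was 0.443% and 0.145% in the medium chip (ratio 0.33) and 0.352% and 0.0618% in the small chip (ratio 0.18). In each chip the ranges of both sets overlapped. With the divide at 25% the small-chip ratio was 0.29.

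**Figure D2:**
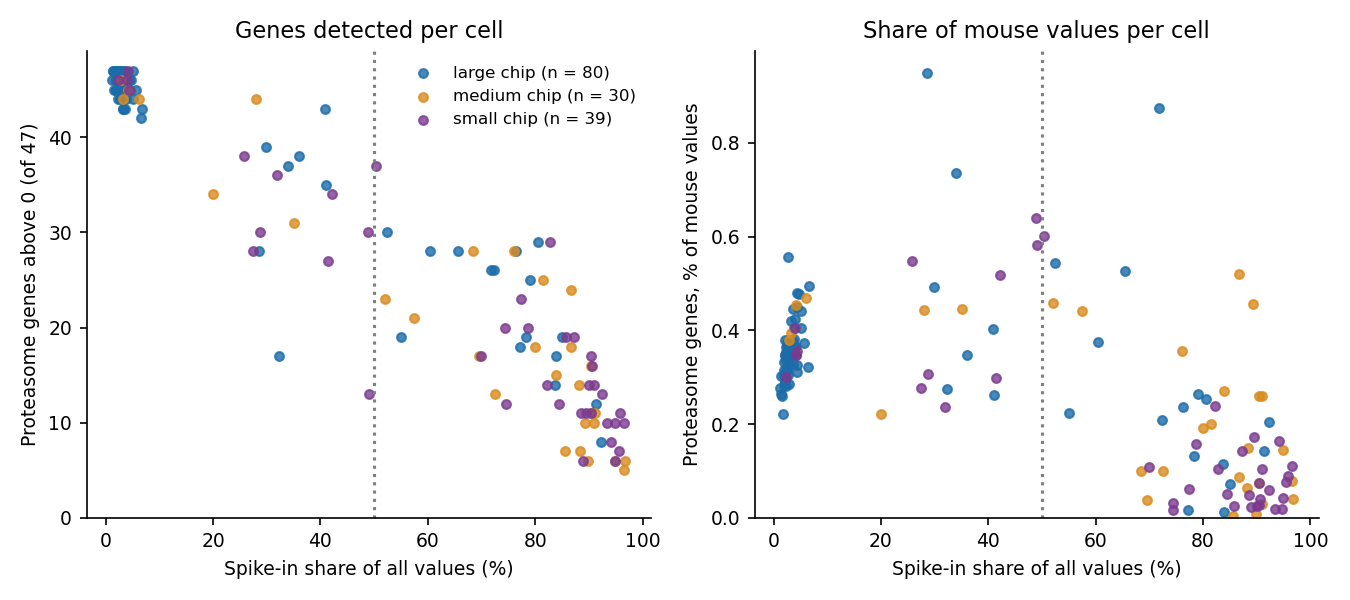
Left, number of the 47 measured proteasome genes above 0 against the spike-in share of all values (%); right, percent of the mouse values that these genes took; 1 point per cell, coloured by chip, with a dotted line at 50%. Cells left of the line in the large chip have a median of 45.5 genes above 0, and cells right of it a median of 22.

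Gene by gene, most members had lower values in cells with more spike-in. A Spearman rho of -0.3 or lower was counted, over the cells of 1 chip, which share a mouse, a chip and the normalisation. The count was 31 of 47 in the large chip, where 54.1% of all genes tested reached it. It was 47 of 47 in the medium chip (83.5% of all genes) and 44 of 47 in the small chip (73.9% of all genes). No member had a rho of 0.3 or more, against 0.545% (large), 0.0228% (medium) and 0.0341% (small) of all genes. The median rho of the members was -0.36, -0.60 and -0.57, beside -0.32, -0.48 and -0.41 over all genes. The lowest in the large chip were Psmg4 (-0.62) and Psmd10 (-0.57), assembly chaperones, and Psmf1, the inhibitor (-0.55). All 6 ATPases were counted there, from -0.34 to -0.44. So were 6 of 7 core alpha genes, 6 of 7 assembly chaperones and 4 of 5 activators or inhibitors. Lower counts were those of the non-ATPase subunits (5 of 11), the core beta genes (3 of 7) and the inducible or tissue-specific genes (1 of 4). The mean level of a member was higher than that of a gene in general (medians of 118 and 23.4 in the large chip), and the part of the level in these counts was not tested.

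Ratios of means between cells with high and low spike-in shares went in both directions. A gene was called when the log2 ratio of means (value + 1), minus the median over all genes tested, was 1 or more in size; the median removed was -1.79 in the large, -1.24 in the medium and -2.04 in the small chip. In the large chip 14 of 47 members were called higher and 16 lower in the cells at or above 50%, against 29.7% and 28.4% of all genes. The medium chip had 5 higher and 25 lower (31.4% and 32.7% of all genes), and the small chip 7 higher and 25 lower (31.9% and 33.7% of all genes). The ATPase Psmc1 had the highest centred ratio in the large chip, 2.78, but it was above 0 in 6 of the 16 cells with high shares, with a mean of 354 ± 1343 (SD over cells), and in 64 of 64 others, with a mean of 179 ± 230. Psmc5, another ATPase, had the lowest ratio, -4.55, with means of 1.04 ± 2.27 and 165 ± 188. Psme2 (-3.08), Psmd10 (-2.91) and Psmb9 (-2.80) followed. In the medium chip Psmc5 was the lowest at -7.26, with means of 0.590 and 572. Psmb8 was the highest there at 2.66, with 6 cells above 0 in each set. With the divide at 25% Psmc5 stood at -0.36 in the large and -0.47 in the medium chip, so it was not called. It was called higher in the small chip, at 3.21, with means of 144 ± 641 and 63.2 ± 79.2. In the small chip Psmg3 was the highest at 5.53 and Psma5 the lowest at -5.46, and with the divide at 25% Psma5 stood at 0.29.

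Between chips the same rule called members in both directions. Higher in the large than in the medium chip were 8 of 47 members, and 4 were lower, against 22.1% and 22.3% of all genes. Against the small chip 11 were higher in the large chip and 12 lower (23% and 24.5% of all genes). Between the medium and the small chip 7 were higher in the medium chip and 10 lower (25.5% and 25.3% of all genes). With each cell scaled to the same sum of mouse values, the large chip had 12 higher and 2 lower against the medium chip (21.2% and 23.3% of all genes) and 18 higher and 7 lower against the small chip (22% and 22.2% of all genes), so the members' split moved with the scaling.

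Psmb10 had the highest centred ratio of the large over the medium chip, 2.26. It was above 0 in 67 of 80 large-chip cells, with a median of 23.5 and a highest value of 3379, and in 8 of 30 medium-chip cells, with a highest value of 120. The ranges overlapped. The chaperone Psmd10 followed at 1.76, and the activator Psme3 was the lowest at -1.31. Psmf1 had the highest ratio of the large over the small chip, 2.48, with means of 30.4 ± 41.2 and 2.41 ± 10.2, and values above 0 in 56 of 80 and 5 of 39 cells. The lowest ratio there was that of Psmg3, -2.77, yet Psmg3 was above 0 in 49 of 80 large-chip cells and 7 of 39 small-chip cells. Its small-chip mean of 58.03 ± 349 rested on a highest value of 2180, and in cells under 50% spike-in its ratio was 1.16. Psmc4 (-2.12) also was lower in the large chip by its mean, with values above 0 in 80 of 80 and 20 of 39 cells. Its small-chip mean of 337 ± 1057 rested largely on values of 4530, 4017 and 3139 in small-chip cells 36, 18 and 13. Over cells under 50% spike-in, 3 members were higher and 11 lower in the large than in the medium chip (22.4% and 19.4% of all genes), and 10 were higher and 16 lower than in the small chip (24% and 27% of all genes). These sets hold 7 medium-chip and 12 small-chip cells.

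The columns of the table stand in an order, and the position of a cell was counted among the columns of its own chip. The table's name mentions WaveCrest, a tool that orders single cells; which genes set the order is not given in the sources used here. In the large chip the position had a rho of 0.86 with Cyp2e1, an enzyme of hepatocytes near the central vein, and of -0.81 with Cyp2f2, one of hepatocytes near the portal tract. Low positions there were thus rich in the periportal gene. In the medium chip these values were 0.32 and -0.66, and in the small chip 0.58 and -0.72. The position also moved with the spike-in share (rho -0.37 for large, 0.37 for medium and 0.27 for small).

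Along the order in the large chip, the members' counts were close to the shares of all genes. None of the 47 members had a rho of 0.3 or more with the position, against 2.0% of all genes tested. A rho of -0.3 or lower was found for 3 members (6.38%), against 4.82% of all genes. Over the 64 cells below 50% spike-in the counts were 1 and 4 (3.72% and 7.01% of all genes). The median rho over 80 cells was -0.04 for the members and -0.03 over all genes. The 3 were Psmb10 (-0.35), Psmc4 (-0.33) and the alpha subunit Psma7 (-0.31). At the other end stood Psmf1 (0.24), Psmd3 (0.12), Psmg3 (0.11) and Psmd14 (0.10). Over the 57 cells below 25% spike-in, Psmb10 had a rho of -0.49, Psmc4 of -0.37, Psmb6 of -0.32, Psmd12, a lid subunit, of -0.30 and Psmf1 of 0.31 (4.66% of all genes were positive and 8.33% negative there), while Psma7 stood at -0.24. In the 46 cells without 3 markers of another cell type, Psmb10, Psmc4 and Psma7 had a rho of -0.20, -0.14 and -0.27, and by Pearson r on log2 values they stood at -0.23, -0.25 and -0.21 over the 80 cells, so none of these 3 was counted under either setting.

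**Figure D3:**
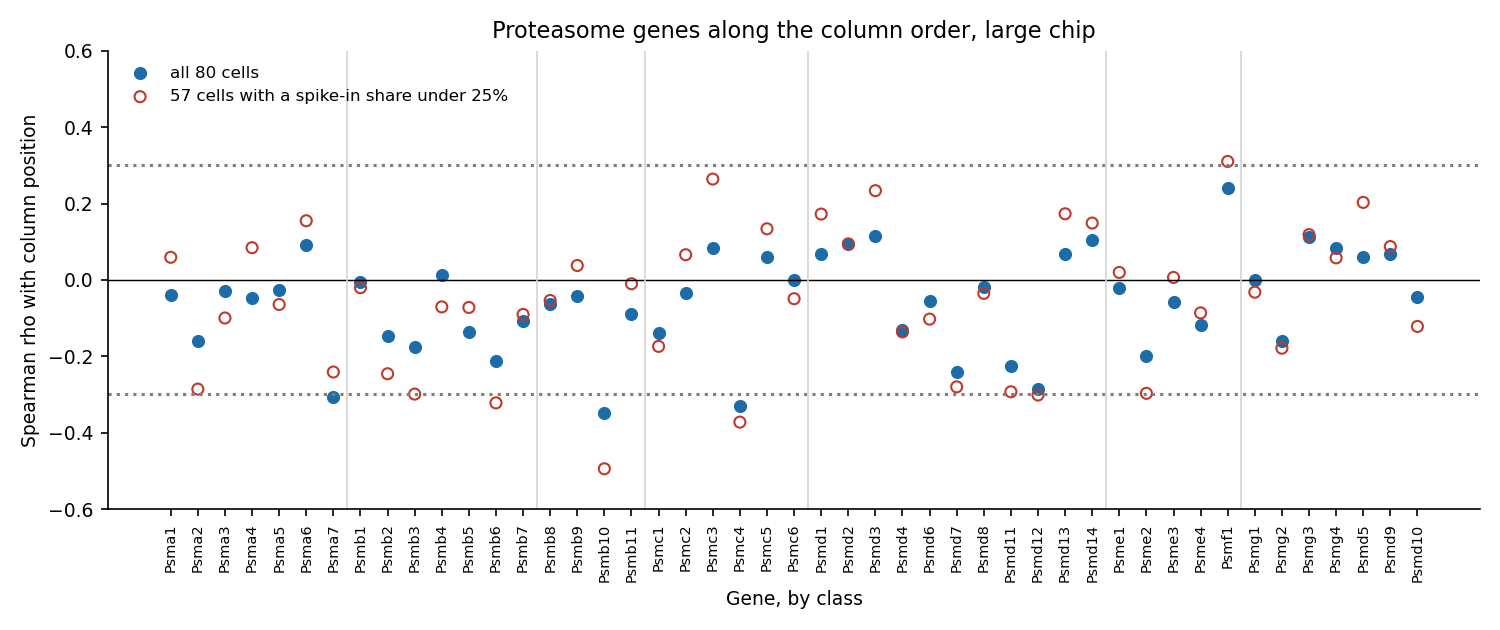
Spearman rho of each measured proteasome gene with the column position in the large chip, by class; filled points are all 80 cells, open points the 57 cells below 25% spike-in, and dotted lines mark 0.3 and -0.3. Psmb10 is the lowest in both sets, at -0.35 and -0.49, and most genes lie between the dotted lines.

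The median of Psmb10 was higher in the cells early in the order. With the large chip split into 5 runs of 16 cells by position, its median over the cells under 50% spike-in was 47.3 in the first run, 54.6 in the second, 49.9 in the third, 21.9 in the fourth and 21.9 in the last. The runs held 15, 15, 7, 11 and 16 such cells, and their ranges overlapped. Its mean was highest in the fourth run, 340.4 against 58.4 in the first, and the fourth run holds large-chip cell 7 with its value of 3379 and its endothelial markers. Psmc4 had medians of 177, 149, 111, 75.3 and 117 in the same runs, with its lowest median in the fourth run and not at the end. Psmf1, which went the other way, had medians of 10.0, 27.7, 10.6, 26.2 and 37.9. Psmb8 (rho -0.06 over the 80 cells) and Psmb9 (-0.04), the other immunoproteasome genes, stood close to 0 along the order. The share of the mouse values that went to all 47 members had medians of 0.357%, 0.379%, 0.289%, 0.310% and 0.314% in the 5 runs. The third run, with the lowest share, held 9 cells at or above 50% spike-in, and the fourth 5, against 1, 1 and 0 in the first, second and last; the part of the spike-in share in this dip was not tested.

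**Figure D4:**
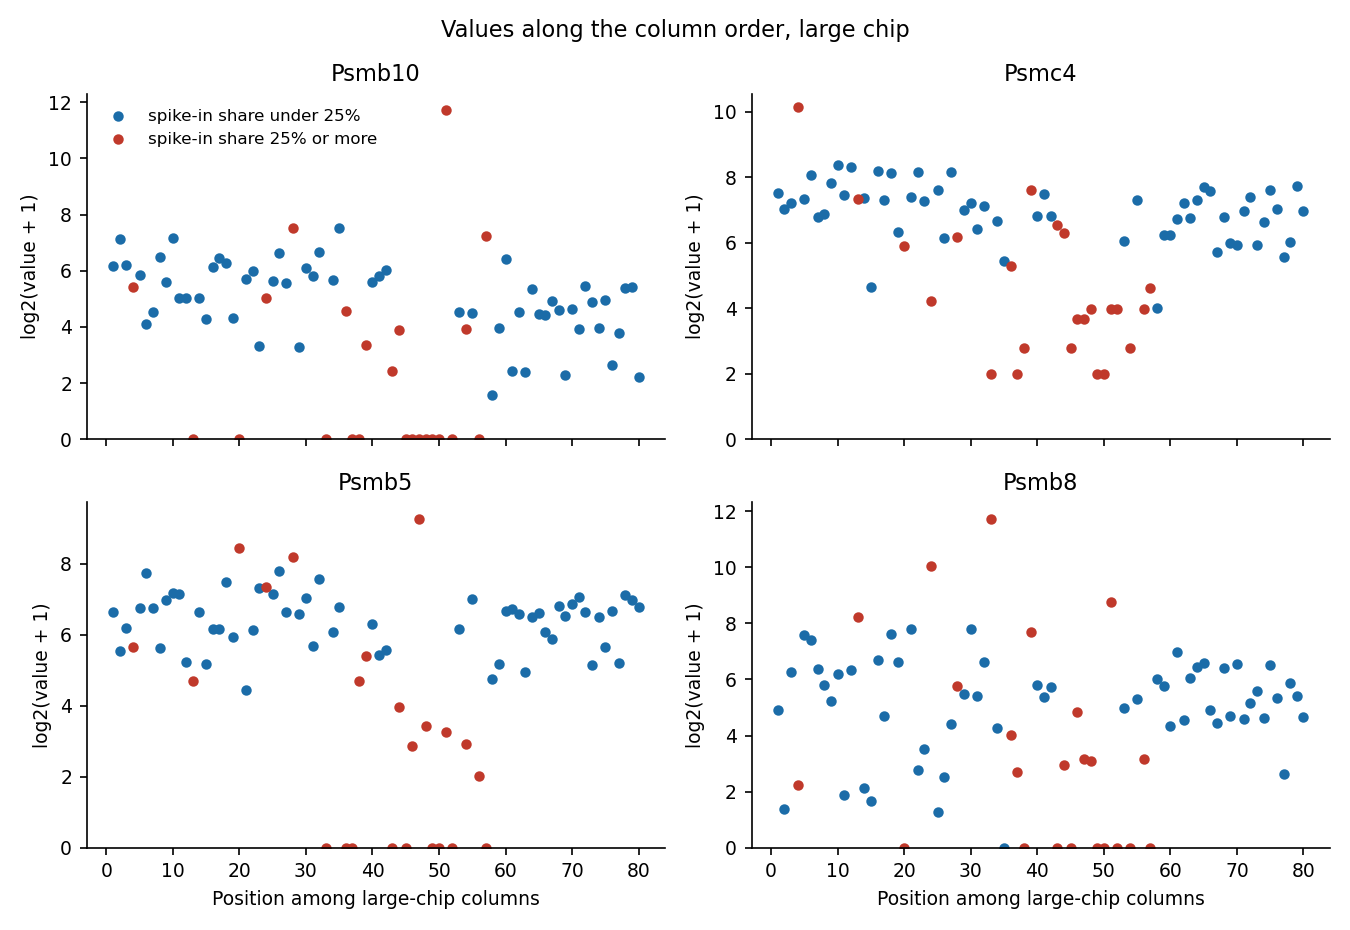
Values of Psmb10, Psmc4, Psmb5 and Psmb8 as log2(value + 1) against the position among the 80 large-chip columns; 1 point per cell, red where the spike-in share was 25% or more. Psmb10 points under 25% lie higher at early than at late positions, and most values at 0 belong to red cells in the middle of the order.

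The MHC class I genes, whose products present the peptides, went the same way as Psmb10 in the large chip. H2-K1 and H2-D1, heavy chains, had a rho with the position of -0.42 and -0.38, and B2m, the light chain, of -0.50. In the 57 cells under 25% spike-in the values were -0.57, -0.56 and -0.74. Of 11 measured genes of a list on antigen presentation and interferon, these 3 were counted as negative and none as positive (4.82% and 2.0% of all genes). Psmb10 itself had a rho of 0.51 with H2-K1, 0.42 with B2m and 0.31 with H2-D1 over the 64 cells under 50% spike-in. Psmb8 had 0.10, 0.13 and -0.02, and Psmb9 0.09, -0.09 and 0.02 with the same genes. The transcription factor Irf1, which acts downstream of interferon, had a rho of -0.16 with Psmb10. Psmb8 and Psmb9 lie close together on chromosome 17 (chr17:34197721-34201454 and chr17:34181987-34187764, build mm10), and Psmb10 on chromosome 8 (chr8:105935735-105938444).

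Genes that work with the proteasome were read from a list of 28, of which 26 were measured; Ddi2 and Paaf1 were not matched. None was counted along the order in the large chip over 80 cells. The lowest rho was that of Rps27a (-0.29), which encodes ubiquitin fused to a ribosomal protein. In the 57 cells under 25% spike-in it stood at -0.40. Nfe2l1, the transcription factor that raises proteasome genes when the protease is blocked, had a rho of 0.04 with the position. It was above 0 in 69 of 80 large-chip cells with a median of 18.3. Pomp, the maturation factor of the core, was above 0 in 75 cells with a median of 276.

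In the medium and small chips more members were lower at late positions, as were more of all genes. In the medium chip 15 of 47 had a rho of -0.3 or lower and none of 0.3 or more (23.2% and 1.61% of all genes), led by Psma4 (-0.56) and Psmg2 (-0.54). In the small chip 9 were negative and none positive (10.8% and 1.08% of all genes), led by Psmc1 (-0.48) and Psmg4 (-0.43). The number of genes above 0 had a rho of -0.41 and -0.20 with the position in these chips, against 0.22 in the large chip. Given the number of genes above 0, the medium chip held 4 positive and 3 negative members (11.3% and 4.99% of all genes) and the small chip 0 and 4 (3.24% and 5.58% of all genes). Below 50% spike-in, 9 members were positive and 12 negative over the 7 medium-chip cells, with a median rho of -0.04 (20.3% and 27% of all genes), and 1 member was positive and 15 negative over the 12 small-chip cells (9.25% and 23.7% of all genes). Psmb10 stood at -0.32 in the medium and -0.29 in the small chip.

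The measured members varied together only weakly from cell to cell. In the 64 large-chip cells under 50% spike-in, the 1081 pairs of measured members had a median rho of 0.08 (SD 0.14 over pairs), against 0.04 over all pairs of genes tested. Core beta genes stood highest among the classes at 0.21 (21 pairs), before the assembly chaperones (0.12) and the ATPases (0.11). Core alpha genes had a median of 0.03 and non-ATPase subunits of 0.01. The same cells gave 0.43 for 73 cytosolic ribosomal protein genes and 0.23 for 81 nuclear genes of oxidative phosphorylation. Pairs share the cells, their depth and the normalisation, and the part of the genes' levels in these differences was not tested. Over all 80 cells the members' median was 0.33 and that of all pairs 0.20.

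**Figure D5:**
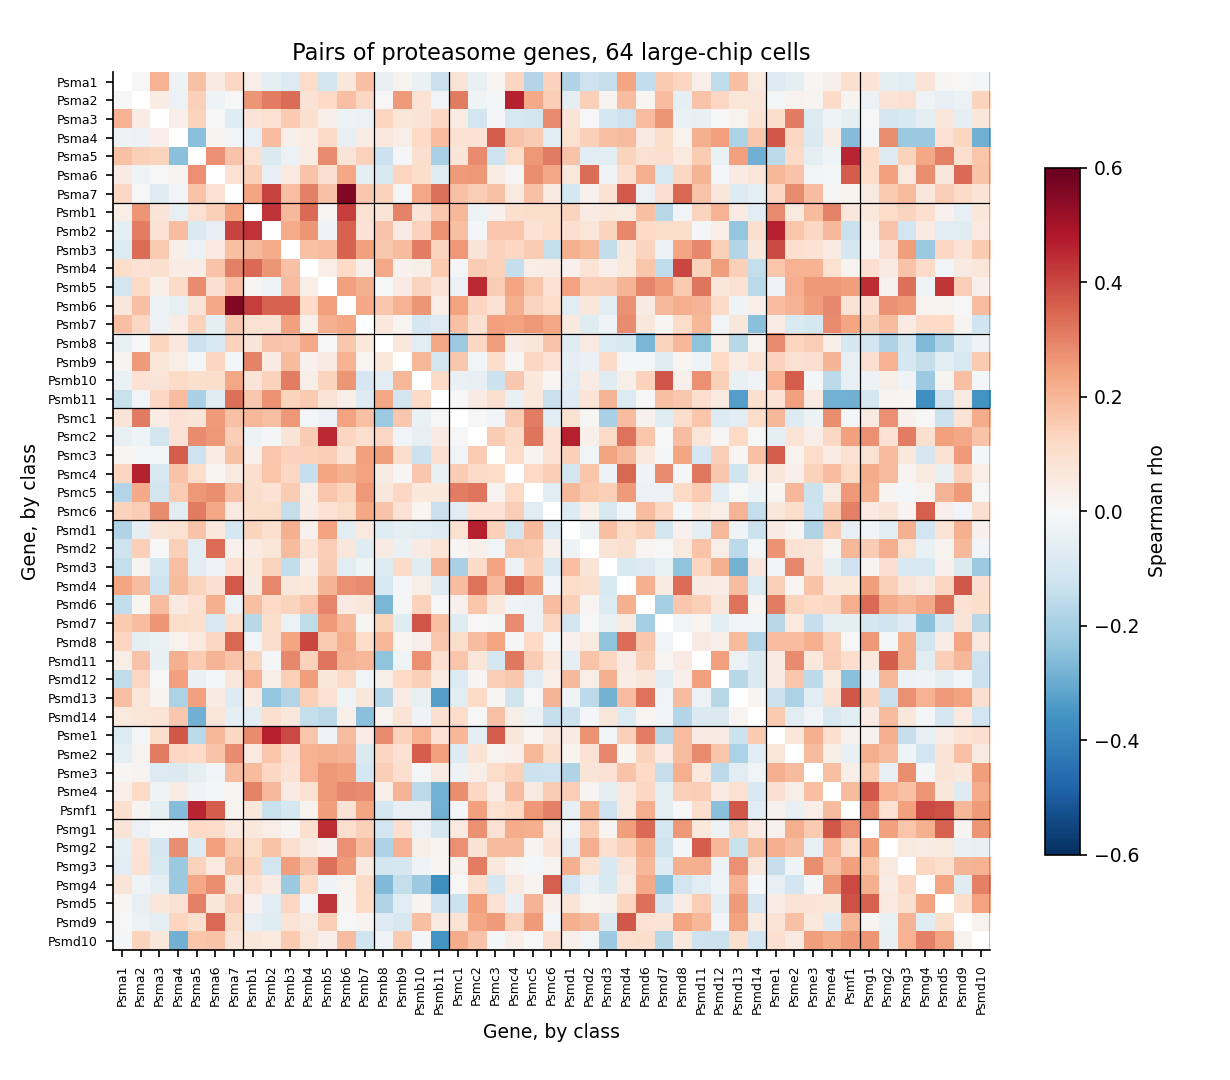
Spearman rho between each pair of the 47 measured proteasome genes over the 64 large-chip cells below 50% spike-in, ordered by class, with black lines between classes; red is positive, blue negative. The core beta block has a median of 0.21, while the non-ATPase block has one of 0.01.

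Psmb5 followed the other measured members most closely. Its rho with the mean z-score of the other members was 0.52, before Psmb6 (0.45), the chaperone Psmg1 (0.45) and the ATPase Psmc2 (0.41). The lowest were Psmd3 (-0.10), Psmb11 (-0.05) and Psma4 (-0.01), and Psmb10 had 0.03. Over these 64 large-chip cells the mean z-score of all measured members had a rho of -0.36 with the summed mouse values. Its rho was 0.20 with the number of genes above 0 and 0.055 with the spike-in share. The part of these in the ranking was not tested. Among pairs, Psma7 with Psmb6 had the highest rho, 0.56, followed by Psmc2 with Psmd1 (0.47), Psmb2 with Psme1 (0.47) and Psma2 with Psmc4 (0.46). The lowest was Psmb11 with Psmg4 (-0.37). Neither pair of neighbours that work together stood out: Psmb8 with Psmb9 had 0.06 and Psme1 with Psme2 had 0.07. Other genes were searched among those tested with a mean above the median gene, outside the members and the lists named above. Those with the highest rho to the members' mean z-score were Echs1 (0.54), an enzyme of fatty acid oxidation, and Mrpl14 (0.53), a mitochondrial ribosomal protein. Iah1 (0.52), Gfer (0.52) and Use1 (0.51) followed. Among the partners Pomp had 0.36, Uchl5, a deubiquitinase of the regulatory particle, 0.32 and Nfe2l1 0.12.

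The promoters of 4 genes are shown: Psmb5 and Psmb6, which followed the other members closely, Psma7, which formed the highest pair with Psmb6, and Psmb10, whose rho was -0.35 with the order and 0.03 with the other members. The sequences are from RefSeq (GRCm38.p6) and give the 250 bases before the start, 5′ to 3′ on the gene's strand. Capitals mark TGACNNNGC, the core of the antioxidant response element that Nfe2l1 and Nfe2l2 bind, in Psmb5 and Psmb6, and CCAAT in Psma7. Psmb10 had no match to these or to GAAANNGAA and TTCNNNGAA, short forms of motifs bound by interferon-activated factors, which can overlap each other. Psmb5 is at chr14:54617996-54618245 on the minus strand, Psmb6 at chr11:70525107-70525356 on the plus strand, Psma7 at chr2:180042465-180042714 on the minus strand and Psmb10 at chr8:105938393-105938642 on the minus strand.
Psmb5: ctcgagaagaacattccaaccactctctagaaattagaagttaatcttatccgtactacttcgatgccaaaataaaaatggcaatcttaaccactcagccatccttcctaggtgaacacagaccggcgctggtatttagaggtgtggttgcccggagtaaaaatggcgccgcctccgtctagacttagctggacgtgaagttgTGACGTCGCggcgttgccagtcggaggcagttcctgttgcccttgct
Psmb6: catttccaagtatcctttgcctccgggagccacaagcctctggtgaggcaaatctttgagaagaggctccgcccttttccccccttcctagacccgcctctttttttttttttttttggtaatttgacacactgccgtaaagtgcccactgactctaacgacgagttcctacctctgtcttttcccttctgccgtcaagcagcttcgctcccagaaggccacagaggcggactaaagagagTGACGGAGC
Psma7: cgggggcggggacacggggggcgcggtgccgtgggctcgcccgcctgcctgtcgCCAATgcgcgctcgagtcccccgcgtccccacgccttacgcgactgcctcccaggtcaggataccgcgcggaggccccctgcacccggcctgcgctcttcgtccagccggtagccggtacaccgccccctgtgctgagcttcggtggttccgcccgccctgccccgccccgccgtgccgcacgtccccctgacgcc
Psmb10: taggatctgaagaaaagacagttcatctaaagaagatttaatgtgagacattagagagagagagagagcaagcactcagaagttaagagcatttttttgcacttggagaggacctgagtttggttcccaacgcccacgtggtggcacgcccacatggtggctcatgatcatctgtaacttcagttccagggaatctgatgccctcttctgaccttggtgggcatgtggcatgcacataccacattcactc

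Motifs were counted on both strands in a window from 250 bases before to 50 after the start, which RefSeq gave for 40 of the 47 measured members. The response element was found in 6 of the 40 (15%), Psmb5, Psmb6, Psmc6, Psmd12, Psmd9 and Psme4, and in 13.99% of all 27025 genes with a window. CCAAT was found in 14 of the 40 (35%) and in 41.1% of all genes, among them 5 of 7 windows of core alpha genes. GAAANNGAA was found in 7 of the 40 (17.5%, against 9.76% of all genes), none of them an inducible beta gene. TTCNNNGAA was found in 3 of the 40 (7.5%, against 9.55%), Psmb8, which is an inducible beta gene, Psmd2 and Psmg1. Members with the response element had a median rho with the other members of 0.29, and the 34 without it of 0.22. The 6 with it ran from 0.02 (Psmd12) to 0.52 (Psmb5), and the ranges of both sets overlapped. For CCAAT the median was 0.21 in the 14 members with it and 0.24 in the 26 without it. The part of either motif in these values was not tested. A match shows that the letters are there, not that a factor binds.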

How the data were processed

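RNA of single cells from 1 mouse was measured on 3 chips; each column of the table was matched to the labelled cell by its title. Per the submitters' processing notes, CASAVA 1.8.2, Bowtie 0.12.9 and RSEM 1.2.3 were used with build mm10. The deposited table holds the authors' normalised expected counts to 2 decimals, treated here as a signal; the table's name mentions SCnorm. Whole reads could not be recovered, so the depth behind each value is unknown, and how spike-ins entered the normalisation is not given in the sources used here.

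Genes above 0 in at least 20% of the 149 cells were tested (8813; in a single chip, those above 0 in it). Levels per kilobase used the length of the principal coding transcript in GENCODE. Chips and spike-in sets (divide at 50%) were compared by the log2 ratio of means with a pseudocount of 1, minus the median over all genes; 1 or more in size was called. Order, spike-in share and pairs used Spearman's rho, with 0.3 as the limit. No test was run, since cells are not replicates. Cells with 3 markers of another type above 0 were counted. The steps were tested on simulated data, made from shuffled values with known changes planted.

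Named were the catalytic genes, up to 3 members per class with the highest large-chip mean, up to 4 per direction in each comparison, members not measured or nearest the limit (2 on each side), partners by the same rule, and the 5 closest other genes; leading ones are quoted, and a few partner genes are not reported here. Psmd3, Psmd13 and Psmb11 as low members, and the medians per class, were singled out after their values were seen. The members and lists were chosen with earlier results of these data known. Alternatives covered the pseudocount, scaling to a common sum of mouse values, the filter, Pearson r, a partial rho on the genes above 0, a landmark score as the axis and subsets of cells. Used were scipy 1.17.1, pandas 2.3.3, numpy 2.4.6 and, for plots, matplotlib 3.10.9, under Python 3.11.15.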

Additional observations from a re-analysis of the deposited data

How the results depend on the processing

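Read depth is unknown and cells share 1 mouse, so neither counting error nor animal spread can be given; many ratios of means rest on a few cells. Of 213 alternatives tried for 59 single member values, 161 kept their side and direction, 38 no longer passed the limit and 14 changed sign. No paired analysis was possible because the chips share no cells and the cell numbers pair nothing.

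Counts of members along the large-chip order (3) became 5 under 50% spike-in, 5 under 25%, 5 with a partial rho on the genes above 0, 0 by Pearson r and 1 without cells that hold markers of another type. The medium-chip count (15) became 7 and the small-chip count (9) became 4 with the partial rho, and the small-chip count 16 under 50% spike-in. The medium against small chip count (17) became 11 with a pseudocount of 10. The small-chip ratio of member shares (0.18) was 0.29 at a 25% divide, and the median pair rho (0.08) was 0.33 over all 80 cells. The cause was not tested for any of these. Subsets chosen after seeing the data were those under 25%, those under 50% in the medium and small-chip order, those without marker cells and the 25% divide of the shares.

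Signs changed as follows. With each cell scaled to the same sum, Psmg1 was at 0.12 in the large against the medium chip. Under 50% spike-in, Psmg3 and Psmd13 were at 1.16 and 1.66 in the large against the small chip, Psmb8, Psmg3 and Psmd13 at -0.56, 0.44 and 2.55 in the medium against the small chip, and Psma4 had a rho of 0.11 with the medium-chip order (7 cells). With the spike-in divide at 25%, Psmc6, Psma6 and Psme2 were at -0.44, -0.33 and 0.16 in the large chip, and Psma5, Psmd10, Psmd8 and Psmd12 at 0.29, 2.27, 0.36 and 0.92 in the small chip. The cause of these changes was not tested.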

Other observations

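Several members reached their highest values in the same cells. Psma3, an alpha subunit of the core, stood at 5540 in large-chip cell 64 and 5205 in large-chip cell 7, and Psme2, a subunit of the alternative cap, at 2121 and 1515 in the same cells. Psme2b, the copy of Psme2 that was above 0 in 14 of 80 large-chip cells, had its highest values there too, 623 in cell 64 and 666 in cell 7. Psme1 was highest in cell 64 at 1625. Both cells held at least 3 endothelial markers, and their spike-in shares were 28.6% and 34.04%; the part of endothelial RNA in these values was not tested.

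The members that were not measured appeared in few cells. Psma8, the testis subunit, was above 0 in 6 of 80 large-chip cells, with a highest value of 109.95 in cell 71. Psmc3ip was above 0 in 7 of 80 large-chip cells and reached 238 in medium-chip cell 26.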
